A study of Mus musculus with 8 samples.

Results

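Transcript levels of 9 genes of smooth muscle cells and pericytes were followed in RNA sequencing libraries of the mouse pineal gland. The genes were Acta2, Myh11, Tagln, Cnn1, Des, Pdgfrb, Notch3, Rgs5 and Abcc9, taken by name from the deposited table, which listed 53710 gene IDs. All 9 were among the 13094 protein-coding genes with a mean of at least 1 FPKM (a read density scaled to transcript length and library size) over the 8 libraries. The 4 wild type libraries, titled Normal-11, Normal-21, Normal-22 and Normal-23, came from male C57BL/6 mice. The 4 5xFAD libraries, titled 5xFAD-1, then 5xFAD-2 and 5xFAD-3, and last 5xFAD-21, came from male mice of a C57BL/6 background that carry human transgenes with familial Alzheimer's disease mutations, among them APP with the Swedish, Florida and London mutations, driven by the Thy1 promoter, which is active mainly in neurons. Every library was a pool of 5 to 7 glands of mice aged 5 months, taken at zeitgeber time 0.5 h, shortly after lights on. The wild type mice were bought from another supplier than the 5xFAD line and were not their littermates, so genotype and supplier cannot be told apart. Values of single libraries are given in the order in which they are named here.

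Smooth muscle cells wrap arteries and arterioles and set vessel width by contraction, while pericytes sit on capillaries inside the basement membrane that they share with endothelial cells. Both are called mural cells. Platelet-derived growth factor B from endothelium recruits them through the receptor PDGFRβ, and Notch ligands on endothelium keep arterial smooth muscle differentiated through NOTCH3. The pineal gland is densely supplied with vessels and lies against the meninges, whose arteries and veins also carry smooth muscle, and in dissected tissue these sources are not separated.

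No gene of the 9 passed an adjusted p of 0.05 between 5xFAD and wild type. All 9 estimates lay below 0, with a median log2 fold change of −0.55, and the libraries of both groups overlapped for every gene. The spread among libraries of the same genotype was wide: the median SD within groups was 0.733 on the log2 scale over the 9 genes and 0.256 over all genes tested. The 9 genes varied largely together from library to library, and so did markers of endothelium, meningeal fibroblasts, bone and bone marrow. In bulk tissue, fewer mural cells and less RNA per cell cannot be told apart.

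Some facts of the libraries bear on what follows. The FPKM of protein-coding genes summed to 320286 to 391275 per library, and as FPKM carry no read counts, the depth behind each value is unknown. All 10 pinealocyte markers were above the limit of 1 FPKM, with summed levels of 1267 to 3277 FPKM, so the labelled tissue was present in every library. Normal-22 held 13.3 FPKM of Xist, the RNA of the inactive X chromosome of females, against at most 0.0404 FPKM in the other 7 libraries, although its mice are stated to be male. The same library also held 32.0 FPKM of the Y-linked Ddx3y, against 38.7 to 59.4 FPKM in the others. 5xFAD-2 held 1632 FPKM in sum of 7 fat markers, against 3.53 to 19.4 FPKM in the others. The share of unread bases in the study's list of libraries was low in all 5xFAD libraries but 5xFAD-21 and in Normal-11, and high in 5xFAD-21 and the remaining 3 wild type libraries. The GC rate in the same list was higher in every wild type library than in any of 5xFAD, so it cannot be told apart from genotype. Results are also given without Normal-22 and within both sets.

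The first 4 genes encode parts of the contractile apparatus. Acta2 (ENSMUSG00000035783.8) encodes smooth muscle α-actin, the thin filament of contracting mural cells, and lies on chromosome 19 of GRCm38 from 34241090 to 34255590 on the minus strand. It measured 60.5, 51.0, 14.9 and 30.0 FPKM in the wild type libraries, and 26.8, 33.0, 19.8 and 14.4 FPKM in those of 5xFAD. A pair of wild type libraries stood above all 5xFAD libraries, another was among the lowest of all, and the groups overlapped. The group means were 39.1 ± 20.6 and 23.5 ± 8.08 FPKM (SD, n = 4 each), and limma gave a log2 fold change of −0.61 with a standard error of 0.44 and an adjusted p of 0.729.

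Myh11 (ENSMUSG00000018830.9; chromosome 16, 14194535 to 14291372, minus strand) encodes the smooth muscle myosin heavy chain, the motor that pulls on actin and the most specific marker of the smooth muscle lineage. It measured 16.5, 12.8, 3.09 and 10.3 FPKM in the wild type libraries and 5.99, 6.78, 7.22 and 1.36 FPKM in the 5xFAD libraries. Every wild type library but Normal-22 stood above every 5xFAD library. Its log2 fold change of −0.998 was the lowest of the 9, but so was its precision among the lowest, with a standard error of 0.64, a 95% interval of −2.46 to 0.46 and an adjusted p of 0.703. Without Normal-22 the estimate was −1.51 (adjusted p = 0.223), and without 5xFAD-21 it was −0.45 (adjusted p = 0.828).

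Tagln (ENSMUSG00000032085.5; chromosome 9, 45929619 to 45936058, minus strand) encodes transgelin, also called SM22α, a small actin-binding protein of smooth muscle. It measured 43.4, 46.1, 16.4 and 31.6 FPKM in wild type and 21.4, 43.6, 20.8 and 11.5 FPKM in 5xFAD. Here 5xFAD-2 stood with the highest wild type libraries, apart from the other 5xFAD libraries. Its estimate was −0.55 on the log2 scale (standard error 0.44, adjusted p = 0.748), and it was −0.88 without 5xFAD-2. The gene overlaps Pcsk7 on the other strand, and whether strand was used in counting is not given in the sources used here, so that reads of genes on opposite strands cannot be told apart, here and for the antisense partners named below.

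Cnn1 (ENSMUSG00000001349.5; chromosome 9, 22099216 to 22109630, plus strand) encodes calponin 1, which binds actin and slows the myosin motor. It measured 1.96, 2.89, 0.734 and 3.06 FPKM in wild type and 1.42, 3.33, 1.27 and 0.308 FPKM in 5xFAD. The highest and the lowest library were both 5xFAD. The log2 fold change was −0.62 with a standard error of 0.67 and an adjusted p of 0.807. It moved to −0.06 without 5xFAD-21 and to −1.08 without 5xFAD-2.

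Des (ENSMUSG00000026208.9; chromosome 1, 75360329 to 75368579, plus strand) encodes desmin, the intermediate filament of muscle cells and of pericytes. It measured 2.33, 1.76, 1.21 and 1.24 FPKM in wild type and 0.887, 3.21, 1.58 and 0.931 FPKM in 5xFAD. The group means were 1.64 ± 0.528 and 1.65 ± 1.09 FPKM (SD, n = 4 each), and the log2 fold change was −0.12 (its standard error 0.42, adjusted p = 0.944). It was the gene of the 9 with the estimate nearest to 0, and its sign turned when single libraries were left out: 0.05 without Normal-11, 0.09 without 5xFAD-1 and 0.07 without 5xFAD-21. Without 5xFAD-2, the library with the fat markers, it was −0.49. An antisense gene, Gm15179, overlaps it.

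Among the receptors, Pdgfrb (ENSMUSG00000024620.11) encodes PDGFRβ, through which mural cells are recruited to vessels, and which fibroblasts also carry. It measured 31.5, 27.4, 8.95 and 13.9 FPKM in wild type and 16.7, 15.0, 15.7 and 6.69 FPKM in 5xFAD. Normal-11 and Normal-21 stood apart above the other 6 libraries, and the remaining wild type libraries lay below 3 of the 5xFAD libraries. The group means were 20.4 ± 10.8 and 13.5 ± 4.60 FPKM (SD, n = 4 each), and the log2 fold change was −0.51 (its standard error 0.44, adjusted p = 0.776).

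Notch3 (ENSMUSG00000038146.7; chromosome 17, 32120820 to 32166852, minus strand) encodes the Notch receptor of arterial smooth muscle and pericytes, the gene mutated in the small vessel disease CADASIL. It measured 10.8, 7.35, 3.10 and 5.13 FPKM in wild type and 4.95, 5.44, 6.88 and 2.49 FPKM in 5xFAD. The 5xFAD libraries lay within the wild type range except 5xFAD-21, which was the lowest. The log2 fold change was −0.36 (standard error 0.41, adjusted p = 0.817), and −0.06 without 5xFAD-21. Gm17276 lies antisense to it.

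Rgs5 (ENSMUSG00000026678.10; chromosome 1, 169655501 to 169695813, plus strand) encodes a regulator that shortens G protein signals and is among the most abundant transcripts of brain pericytes. It measured 127, 86.8, 58.3 and 74.3 FPKM in wild type and 52.2, 63.4, 67.0 and 42.8 FPKM in 5xFAD. All wild type libraries but Normal-22 stood above all 5xFAD libraries. The group means were 86.6 ± 29.4 and 56.3 ± 11.003 FPKM (SD, n = 4 each). The log2 fold change was −0.58 (standard error 0.24, 95% interval −1.13 to −0.03), the one interval of the 9 that did not reach 0, with an unadjusted p of 0.0407 and an adjusted p of 0.607 from limma. The unadjusted p was 0.00997 without Normal-22, 0.0931 without Normal-11 and 0.108 without 5xFAD-21, and it was also above 0.05 without Normal-21, Normal-23 or 5xFAD-1, each left out alone. Over 24 alternative settings the adjusted p ran from 0.167 to 0.991 and the estimate from −1.07 to −0.38.

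Abcc9 (ENSMUSG00000030249.15; chromosome 6, 142587862 to 142702315, minus strand) encodes SUR2, the regulatory subunit of the ATP-sensitive potassium channel of pericytes and vascular smooth muscle. It measured 7.25, 4.08, 2.91 and 2.80 FPKM in wild type and 2.92, 4.11, 4.51 and 1.78 FPKM in 5xFAD. Normal-11 stood far above every other library, and the rest of both groups intermingled. The log2 fold change was −0.32 (standard error 0.37, adjusted p = 0.817), and without Normal-11 it was −0.03. It shares its locus with the antisense gene 5330439B14Rik.

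**Figure D1:**
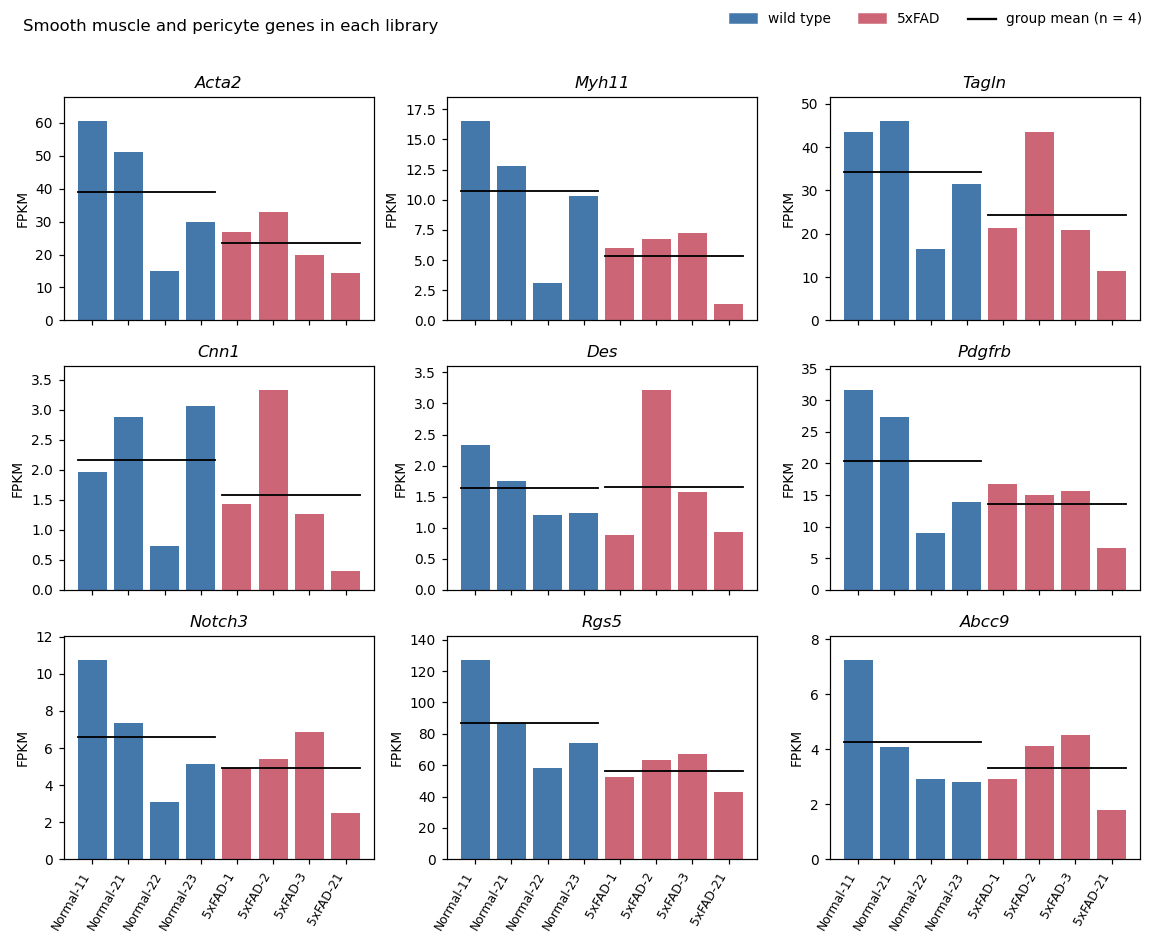
FPKM (vertical axes, each starting at 0) of the 9 genes in each library, with wild type bars in blue, 5xFAD bars in red and black lines at the group means (n = 4 each). Normal-11 is the highest library for 6 genes and 5xFAD-21 the lowest for 8, and the groups overlap in every panel.

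Read across the 9 genes, 0 passed an adjusted p of 0.05, where 5 of 13094 genes (0.0382%) did. At an unadjusted p under 0.05, 1 of 9 was lower in 5xFAD, against 3.35% of all genes tested, and 0 of 9 were higher, against 4.6%. For 0 of 9 did every 5xFAD library lie below every wild type library, as it did for 2.23% of all genes, or above, as for 2.11%. An exact two-sided permutation test of each gene over the 70 ways to choose 4 of 8 libraries, whose smallest possible p is 0.0286, gave 0 of 9 under 0.05, with values from 0.0857 to 0.7714. The estimates of all 9 lay below 0, as did 51.3% of all genes, and the median was −0.55 against −0.01. The 9 genes varied together, so their common sign is not that of 9 separate observations.

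The split by unread bases changed these counts. With a term for that share in the fit, the median over the 9 genes was −1.003 and 7 of 9 were lower at an unadjusted p under 0.05, where 6.98% of all genes were. The genes that stayed above it were Cnn1 and Des. Among the libraries of low share, 1 wild type and 3 5xFAD, the median was −0.92 and 6 of 9 were lower at that level, against 6.67% of all genes. Among those of high share, 3 wild type and 1 5xFAD, the median was −0.97 and 2 of 9 were lower, against 2% of all genes. In both sets all 9 estimates lay below 0, but each rests on 1 library in one of its groups, Normal-11 or 5xFAD-21, which are also the libraries where these genes were highest and lowest, and its spread was taken to be that of the others. In none of these fits did a gene of the 9 pass after adjustment, and the lowest adjusted p was 0.251, for Myh11 in the low set. The study gives no sequencing date, so whether the split marks a run was not tested.

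Leaving out Normal-22 moved the median to −0.84, with 3 of 9 lower at an unadjusted p under 0.05 against 8.44% of all genes. Leaving out 5xFAD-21 moved it to −0.20, with 0 of 9 lower against 3.7%. Both libraries were the lowest in these genes, one from each genotype. With both left out the median was −0.54 and 3 of 9 were lower at that level against 7.41% of all genes, with the lowest adjusted p at 0.105, for Myh11. With array weights, which give less weight to libraries far from their group, 2 of 9 were lower against 6.42%.

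**Figure D2:**
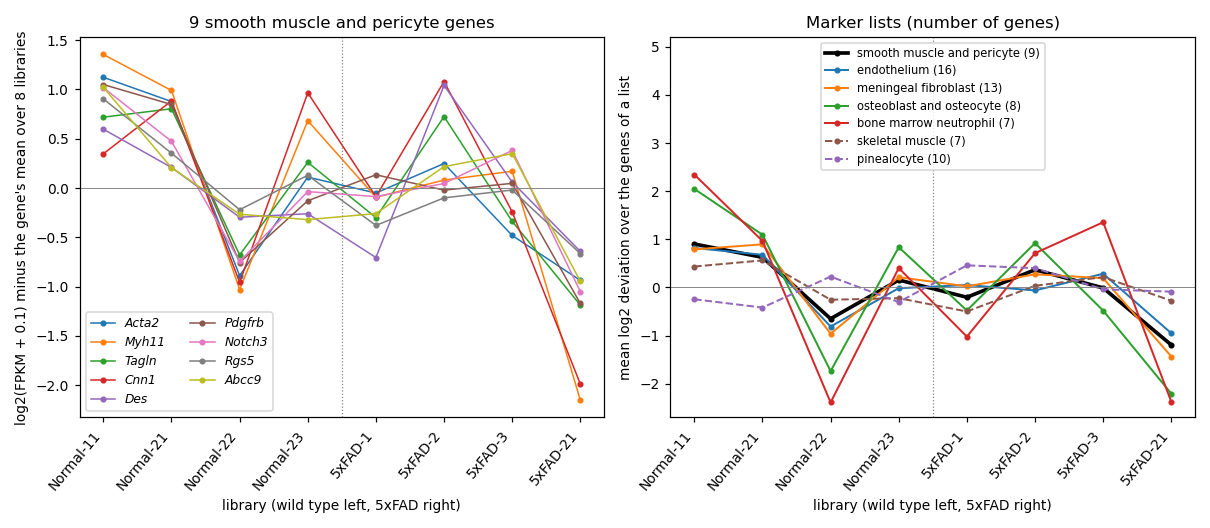
Left, log2(FPKM + 0.1) of each of the 9 genes minus that gene's mean over the 8 libraries; right, the mean of such deviations over the genes of 7 marker lists, with the number of genes averaged in parentheses. Lines join libraries only to guide the eye. The 9 genes, endothelium, meningeal fibroblasts, bone and marrow are all low in Normal-22 and 5xFAD-21, and pinealocyte markers do not share that course.

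As FPKM are per length, the levels of the 9 genes can be ordered. Rgs5 had the highest mean over the 8 libraries (71.5 ± 26.2 FPKM, SD, n = 8) and exceeded Acta2, the next (31.3 ± 16.7), in 8 of 8 libraries. Acta2 and Tagln (29.3 ± 13.7) were not separated, as Acta2 was higher in 4 of 8 libraries. Tagln was above Pdgfrb (16.98 ± 8.51) in 8 of 8, and Pdgfrb above Myh11 (8.02 ± 5.01) in 8 of 8. Myh11 was above Notch3 (5.76 ± 2.61) in 6 of 8, so their order was not fixed, while Notch3 was above Abcc9 (3.79 ± 1.66) in 8 of 8. Abcc9 was above Cnn1 (1.87 ± 1.13) in 7 of 8, and Cnn1 and Des (1.64 ± 0.791) changed places, with Cnn1 higher in 4 of 8.

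How far each gene ranged differed. From the lowest library to the highest, Myh11 spanned 12.1-fold and Cnn1 10.8-fold, and the other 7 spanned 2.97-fold (Rgs5) to 4.72-fold (Pdgfrb). Within groups, the SD on the log2 scale was 1.09 for Cnn1 and 1.08 for Myh11, higher than in 96.7% and 96.6% of all genes tested, and 0.39 for Rgs5, higher than in 71.3%. Normal-11 was the highest library for 6 genes, and 5xFAD-21 the lowest for 8 and among the lowest 2 for all 9. Normal-22 was among the lowest 2 for 6 genes. Across the 36 pairs of these genes, Pearson's r over the 8 libraries ran from 0.546 to 0.958 with a median of 0.831. The 6 pairs within Acta2, Myh11, Tagln and Cnn1 had a median of 0.889. Values of one library share its RNA, depth and scaling, so these coefficients are given as a description.

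The mean log2 deviation of the 9 genes was 0.90, 0.63, −0.65 and 0.16 in the wild type libraries, and −0.20, 0.37, −0.01 and −1.19 in the 5xFAD ones. The 16 endothelial markers, such as Kdr, the main receptor for vascular endothelial growth factor, followed almost the same course, at 0.82, 0.68, −0.81 and −0.01 and at 0.05, −0.06, 0.29 and −0.95. The difference between both, mural minus endothelial, ranged from −0.05 to 0.17 among wild type libraries and from −0.29 to 0.43 among those of 5xFAD, and these ranges overlap. In 3 of 4 5xFAD libraries it lay below every wild type value, and in 5xFAD-2 above all of them. Summed endothelial levels were 106 to 325 FPKM in wild type and 94.6 to 223 FPKM in 5xFAD, with all 16 markers above 1 FPKM. Of the 16 endothelial estimates 15 lay below 0 (median −0.35, 0 passed at either threshold), as did 3 of 4 of arterial endothelium (median −0.35), led by Sema3g at −1.08.

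Markers of cells around the gland varied with the mural genes too. The 13 meningeal fibroblast markers stood at 0.79, 0.90, −0.96 and 0.21 in wild type and 0.02, 0.27, 0.19 and −1.43 in 5xFAD, with summed levels of 553 to 4644 and 431 to 1462 FPKM. Of these, 9 of 13 lay below 0 (median −0.25), and Igf2, a growth factor of the leptomeninges, had an unadjusted p of 0.0401 from limma at −0.90 (adjusted p = 0.607). Slc6a13 (0.45), Aldh1a2 (0.43), Slc22a6 (0.43) and Crabp2 (0.10) lay above 0. The sums include Col1a1 and Col1a2, with means of 1091 and 729 FPKM in wild type and 201 and 206 FPKM in 5xFAD. Bone markers ranged more widely than the mural genes, with osteoblast and osteocyte markers at 2.05 in Normal-11 and −2.20 in 5xFAD-21, summed levels of 32.2 to 188 FPKM in wild type and 21.96 to 83.8 FPKM in 5xFAD, and 7 of 8 estimates below 0 (median −1.09). Neutrophil genes of the marrow stood at 2.35 in Normal-11 and at −2.39 and −2.38 in Normal-22 and 5xFAD-21, with summed levels of 20.3 to 449 and 23.5 to 250 FPKM, and 7 of 7 estimates lay below 0 (median −0.76). Their part in the levels of the mural genes was not tested.

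Skeletal muscle also expresses Des. Of its 22 markers 15 had means below 1 FPKM, Acta1 and Myh4 among them, and all 22 summed to 19.6 to 34.9 FPKM in wild type and 21.03 to 31.1 FPKM in 5xFAD, and its part in the level of Des was not tested. Of the 7 tested, 6 lay below 0 (median −0.23). Fat markers were high in 5xFAD-2 alone, where Des, Cnn1 and, within 5xFAD, Acta2 and Tagln were highest, and 7 of 7 fat estimates lay above 0 (median 1.90). Erythroid markers, from blood, ran from 695 to 5581 FPKM in sum, highest in Normal-22, with 6 of 7 below 0 (median −0.37). Pinealocyte markers had 6 of 10 estimates above 0 (median 0.36). At an unadjusted p under 0.05 from limma, 3 of 10 were higher, Gngt1, Sag and Neurod1, against 4.6% of all genes. Asmt (−0.17), Crx (−0.13), Pax6 (−0.07) and Lhx4 (−0.07) lay below 0, and 0 of the list passed after adjustment.

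The genes whose pattern over the 8 libraries was most like the mean of the 9, by Pearson's r on the log2 scale, were Ckap4 (0.984), St3gal1 (0.984), Dapk2 (0.981), Itga1 (0.980), Ntrk3 (0.979), Mlip (0.977), Crispld2 (0.977), Nupr1 (0.976), Sema4a (0.9751) and Epb41l2 (0.974). Itga1 encodes the α1 integrin, a collagen receptor of smooth muscle and other cells, and Ckap4 a membrane protein of the endoplasmic reticulum. These genes were picked as the highest of all those tested, the 9 left out. An r above 0.8 was shared by 1123 of 13094 genes (8.58%), a count that includes 8 of the 9 themselves. Among them were 14 of 16 endothelial, 7 of 7 neutrophil and 5 of 8 bone markers. Of the lists described below, 11 of 23 contractile and 5 of 19 pericyte genes were among them.

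Single genes had other nearest neighbours. Those of Acta2 were Lrrc15, Tpm2 (β-tropomyosin, of the thin filament) and Col5a1, with r of 0.989 to 0.994. Those of Myh11 were Ckap4, Rap1gap2 and Col5a2, at 0.978 to 0.979, and those of Tagln were Aoc3, an amine oxidase of smooth muscle and fat, RP23-122F3.1 and Nupr1, at 0.9749 to 0.9766. Cnn1 was followed by Actg2, RP23-440D19.2 and Tmem39b (0.950 to 0.960), and Des by Plekhf1, Akap2 and Ncoa7 (0.965 to 0.970). For Pdgfrb they were Adam12, Twist1 and Erg (0.994 to 0.997), of which Erg is a transcription factor of endothelium. For Notch3 they were Plod1, Adgrl4 and Csf3r (0.991 to 0.992), for Abcc9 Lrrfip1, Prpf38b and Fam49a (0.962 to 0.9752), and for Rgs5 G2e3, Mki67 and Top2a (0.973 to 0.985), of which the last pair are genes of dividing cells.

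The closest relatives of these genes, Actg2 of smooth muscle among them, did not share their sign as a group. Of 22 relatives, 19 were tested, 10 lay below 0 and 9 above, with a median of −0.01, and 0 passed after adjustment. The cytoplasmic actins Actb (0.02) and Actg1 (0.17) were near 0 and their transcripts were 18.9 and 5.37 times as high as Acta2 in mean FPKM. The other smooth muscle actin, Actg2, measured 2.62, 5.84, 0.714 and 3.44 FPKM in wild type and 0.713, 3.90, 0.880 and 0.0674 FPKM in 5xFAD, or −1.61 as a log2 fold change (standard error 0.95, adjusted p = 0.683). The muscle actins Acta1 and Actc1 had means of 0.628 and 0.083 FPKM and were not tested. Actin genes share nearly identical coding sequence, so that reads could have been split among them.

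The non-muscle myosins Myh9 (−0.21), Myh10 (−0.16) and Myh14 (−0.34) lay closer to 0 than Myh11, and Myh9 was 6.19 times as high as Myh11. Tagln2 (0.05) and Tagln3 (0.45) were both above 0, whereas Cnn2 (−0.36) and Cnn3 (−0.01) were below it. Of the intermediate filaments, Vim (0.21), Nes (0.12) and Synm (0.36) lay above 0, and Synm, which encodes synemin, a partner of desmin in filaments, had an unadjusted p of 0.0345 and an adjusted p of 0.607. Pdgfra, the sister receptor found on fibroblasts and oligodendrocyte precursors, stood at −0.16, Notch1 at 0.01, Notch2 at −0.36 and Notch4 at −0.51, Rgs4 at −0.42 and Rgs16 at 0.23. Abcc8, the other sulfonylurea receptor, had a mean of 0.0709 FPKM against 3.79 FPKM for Abcc9 and was not tested.

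**Figure D3:**
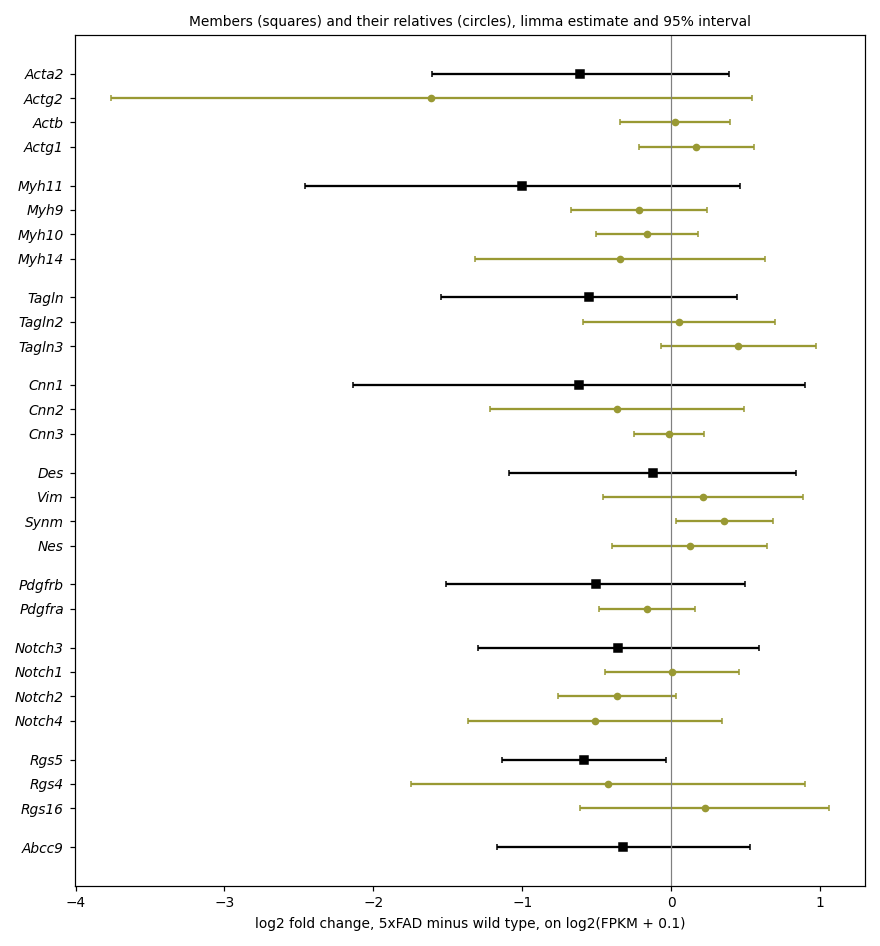
Log2 fold change (5xFAD minus wild type, limma on log2(FPKM + 0.1)) with its 95% interval for the 9 genes (black squares) and, below each, its tested relatives (olive circles). Every black square lies left of 0, and the interval of Rgs5 alone among the 9 ends before 0, at −0.03.

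The wider contractile list of 27 genes had 23 tested. Of these 18 lay below 0 and 5 above, with a median of −0.29, and 0 passed after adjustment. At an unadjusted p under 0.05, 1 of 23 was lower and 2 were higher, against 3.35% and 4.6% of all genes. Mylk, which encodes the myosin light chain kinase that starts smooth muscle contraction, measured 146, 182, 200 and 208 FPKM in wild type and 128, 88.7, 125 and 136 FPKM in 5xFAD. Every 5xFAD library lay below every wild type library (log2 fold change −0.63, standard error 0.17, adjusted p = 0.541). In this list 2 of 23 genes had no overlap with 5xFAD below and 1 with 5xFAD above, against 2.23% and 2.11% of all genes. Its order among the wild type libraries was not that of Acta2 or Myh11, as Normal-22 was high in Mylk and Normal-11 the lowest of its group.

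Ppp1r12b, a targeting subunit of the phosphatase that reverses the action of that kinase, also did not overlap, with 11.9 to 13.7 FPKM in wild type and 8.82 to 11.8 FPKM in 5xFAD (−0.29, adjusted p = 0.629). Sncg, γ-synuclein, known mainly from neurons, lay the other way, with 1.45 to 4.97 FPKM in wild type and 5.10 to 20.1 FPKM in 5xFAD (1.61, adjusted p = 0.559), as did Pdlim3, a PDZ and LIM protein of the actinin lattice (0.58, adjusted p = 0.598). Smtn, smoothelin, of fully contractile smooth muscle, was at −0.81 (adjusted p = 0.681), with 4.13 to 21.9 FPKM in wild type and 3.94 to 7.51 FPKM in 5xFAD.

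Transcription of contractile genes depends on serum response factor (SRF), which binds the CArG box, and on its coactivators myocardin and the myocardin-related factors. Of the 9 regulators 8 were tested, 7 lay below 0 and 1 above, with a median of −0.21. The one above was Klf4 (0.25, adjusted p = 0.907), and Srf itself was near 0 (−0.04, adjusted p = 0.969). Mkl1, encoding a myocardin-related factor that responds to free actin, measured 7.06, 6.91, 5.28 and 5.46 FPKM in wild type and 4.22, 3.81, 4.86 and 4.60 FPKM in 5xFAD. Every 5xFAD library lay below every wild type library, as for 2.23% of all genes, at −0.48 on the log2 scale (standard error 0.15, adjusted p = 0.549). Fhl2, a LIM cofactor, stood at −0.74 (adjusted p = 0.636), Mef2c at −0.33, Mkl2 at −0.22 and Elk1 at −0.20. Myocd itself, the gene for myocardin, was low in every library, at 0.0473 to 0.345 FPKM in wild type and 0.0310 to 0.114 FPKM in 5xFAD, and was not tested.

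The SRF site was looked for in the 250 bases before the transcription start of each gene, in RefSeq promoters of GRCm38.p6, on both strands. Promoters of 6 of the 9 genes were matched, those of Acta2, Cnn1, Des, Notch3, Rgs5 and Abcc9. The CArG box, CC then 6 bases that are A or T then GG, was in 0 of the 6 and in 1.47% of all 32851 promoters. A looser form, in which 1 of the 6 middle bases may be C or G, was in that of Acta2 alone and in 8.59% of all promoters. It is shown in 2 stretches of 30 bases of Acta2 (minus strand, 5′ to 3′), beside the promoter of Myl9, the regulatory light chain of smooth muscle myosin, which holds the strict box and the looser one, and that of Rgs5, the most abundant of the 9, which holds neither. Capitals mark the boxes.
Acta2, chr19:34255438-34255467: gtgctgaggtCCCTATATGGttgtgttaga
Acta2, chr19:34255388-34255417: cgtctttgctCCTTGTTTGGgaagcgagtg
Myl9, chr2:156775214-156775419, plus strand: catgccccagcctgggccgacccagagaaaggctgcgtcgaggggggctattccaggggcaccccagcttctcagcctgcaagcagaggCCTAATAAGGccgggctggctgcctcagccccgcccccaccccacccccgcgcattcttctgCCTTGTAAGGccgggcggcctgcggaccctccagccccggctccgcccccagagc
Rgs5, chr1:169655251-169655500, plus strand: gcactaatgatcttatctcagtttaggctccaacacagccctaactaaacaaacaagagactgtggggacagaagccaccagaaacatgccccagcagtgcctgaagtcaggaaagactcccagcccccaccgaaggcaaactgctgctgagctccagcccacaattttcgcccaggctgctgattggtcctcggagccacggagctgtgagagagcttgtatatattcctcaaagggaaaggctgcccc

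The boxes of Acta2 lie at −84 to −75 and at −34 to −25 from the RefSeq start, within a first exon that GENCODE begins further upstream. Those of Myl9 lie at −161 to −152, the strict one, and at −99 to −90. Myl9 measured 80.7, 69.9, 18.7 and 40.6 FPKM in wild type and 35.2, 35.04, 24.4 and 21.7 FPKM in 5xFAD (log2 fold change −0.68, adjusted p = 0.699), in an order of libraries close to that of Acta2. Of 29 promoters of the wider contractile list (24 genes), 2 held the strict box, those of Myl9 and Myl6, against 1.47% of all. The looser form was in 3, those of Myl9, Pdlim3 and Myl6, against 8.59%. Myl6 measured 492, 628, 488 and 580 FPKM in wild type and 445, 515, 404 and 495 FPKM in 5xFAD (−0.23, adjusted p = 0.699). Unlike for Acta2, its highest library was Normal-21 and its lowest 5xFAD-3. TATAAA was in 0 of the 6 promoters of the 9 genes and 12.4% of all. TGGGAA, the core bound by the Notch effector RBPJ, was in 2 of 6, those of Abcc9 and Acta2, and in 21.6% of all. CATTCC, the motif of TEAD factors, was in the same 2 and in 12.6% of all. The TGGGAA of Acta2 overlaps its proximal box, and both motifs overlap in Abcc9. A match is a run of letters and not a binding site, and its absence from this window says nothing of sites elsewhere.

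The pericyte list of 22 genes had 21 in the table and 19 tested. Of these 13 lay below 0 and 6 above, with a median of −0.26. At the unadjusted threshold 1 was lower and 1 higher, against 3.35% and 4.6% of all genes, with 0 after adjustment. Slc6a20a, a proline transporter, was the higher one, with 25.7 to 29.8 FPKM in wild type and 28.5 to 36.6 FPKM in 5xFAD (0.27, adjusted p = 0.600). Ndufa4l2 stood at −1.09, Vtn, which encodes vitronectin, a matrix protein of brain pericytes, at −0.35, and Cox4i2, an oxygen-sensitive subunit of cytochrome c oxidase, at 0.39, with adjusted p of 0.629 for each. Vtn measured 141, 198, 178 and 225 FPKM in wild type and 166, 126, 147 and 137 FPKM in 5xFAD. Its order among the wild type libraries was not that of Rgs5 or Pdgfrb, as Normal-11 was the lowest of its group. The median of the pericyte list was 0.01 without 5xFAD-21 and −0.76 in the libraries of high unread share.

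Around Pdgfrb, the 5 genes of the PDGF ligands and the sister receptor Pdgfra had 4 estimates below 0 and 1 above, a median of −0.18, and 0 passed at either threshold. Pdgfb, the endothelial ligand, measured 4.86, 5.44, 1.98 and 4.03 FPKM in wild type and 1.60, 2.82, 3.49 and 3.84 FPKM in 5xFAD (−0.44, adjusted p = 0.763). Its groups overlapped, and Pdgfb was not at its lowest in 5xFAD-21, where Pdgfrb was. Pdgfa (−0.18), Pdgfc (−0.33) and Pdgfd (0.10) had adjusted p of 0.771 to 0.861.

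Around Notch3, 16 of 18 Notch genes were tested, 10 lay below 0 and 6 above, with a median of −0.09, and 0 passed at either threshold. The receptors Notch2 and Notch4 lay below 0, as given above, whereas Maml2, a coactivator (0.25, adjusted p = 0.629), Rbpj, the DNA-binding partner (0.46, adjusted p = 0.657), and the target genes Hes1 (0.39, adjusted p = 0.640) and Hes5 (0.61, adjusted p = 0.653) lay above it. Heyl, a target known from vascular smooth muscle, was at −0.23 (adjusted p = 0.840), with 2.34 to 4.41 FPKM in wild type and 1.42 to 3.395 FPKM in 5xFAD, and was chosen after its value was seen. Hey1 was at −0.24 (adjusted p = 0.707) and Hey2 at 0.17 (adjusted p = 0.910). These Notch genes are used by many cells of the gland.

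The channel partner of Abcc9, Kcnj8, which encodes the pore Kir6.1, was the 1 tested of 3 genes for ATP-sensitive potassium channels. It measured 4.49, 3.37, 1.62 and 2.11 FPKM in wild type and 2.19, 2.47, 2.53 and 1.73 FPKM in 5xFAD (−0.28, standard error 0.32, adjusted p = 0.814). As for Abcc9, Normal-11 was the highest library. Kcnj11, the other pore gene, was at 0.110 to 0.370 FPKM in all 8 libraries and, with Abcc8, below the limit.

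Among the nearest kin of Rgs5, 5 of 9 genes of the R4 family were tested, 2 below 0 and 3 above, with a median of 0.23. Rgs2 measured 44.5, 50.05, 58.9 and 60.5 FPKM in wild type and 80.6, 74.0, 57.9 and 74.2 FPKM in 5xFAD, and its estimate was of the opposite sign to that of Rgs5 (0.42, standard error 0.14, unadjusted p = 0.0169, adjusted p = 0.580). The groups overlapped through 5xFAD-3. Rgs3 (−0.32), Rgs18 (0.56), Rgs4 and Rgs16 had adjusted p of 0.794 to 0.867, and Rgs21 was listed at 0 in every library.

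**Figure D4:**
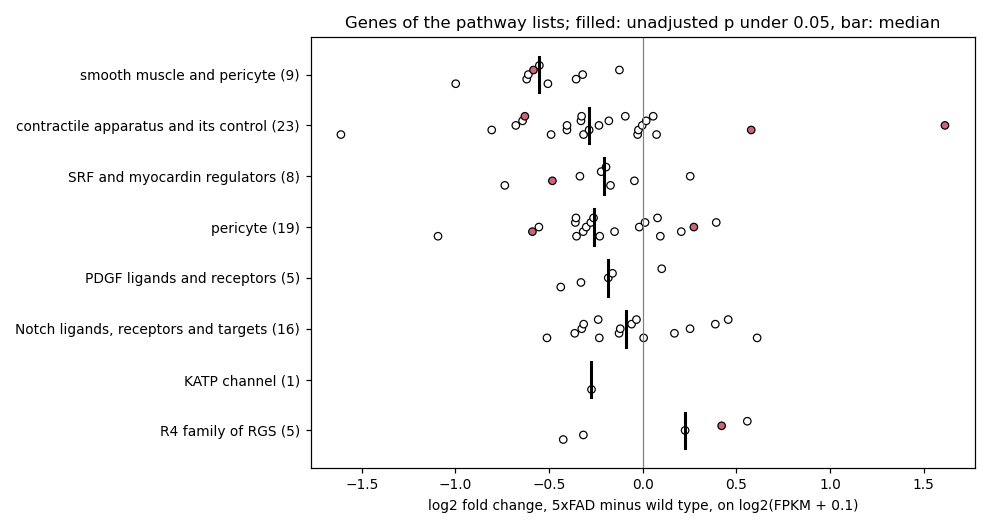
Log2 fold change (horizontal axis, 5xFAD minus wild type) of every tested gene of the 9 and of 7 related lists, with the number tested in parentheses; each point is a gene, filled where its unadjusted p is under 0.05, and the bar is the median. The 9 genes have the lowest median, −0.55, and the R4 family the highest, 0.23, and no point passed after adjustment.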

How the data were processed

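Total RNA of pooled pineal glands was depleted of ribosomal RNA, made into stranded libraries and sequenced in pairs. The deposited FPKM values were made by the authors with Trimmomatic, STAR (GRCm38) and Cuffnorm on GENCODE M17. Tool versions, the Cuffnorm normalization and whether strand was used in counting are not given in the sources used here. No read counts accompany the FPKM, so precision rests on the spread among 4 libraries a group. Each library is a pool, and p-values measure the spread between pools.

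From these values, limma 3.58.1 in R 4.3.3 (lmFit, eBayes with a trend) was run on log2(FPKM + 0.1) over 13094 protein-coding genes with a mean of at least 1 FPKM, with Benjamini-Hochberg adjustment over all of them. Every fold change is on that scale, which understates changes of low genes. Group labels came from the genotype in the sample records. Coordinates are those of GENCODE M21, which 53616 of 53710 gene IDs matched. In simulated data of this size, 57 of 100 genes lowered by 1 and 95 of 100 lowered by 2 on the log2 scale were called. So were 8 of 12894 unchanged ones. These rates stand for the tested genes as a whole, whose median SD within groups was 0.256 on the log2 scale. The smooth muscle and pericyte genes had a wider spread, with a median SD of 0.733, so these rates cannot be read as theirs. Tables were handled with Python 3.11.15 and pandas 2.3.3.

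The 9 genes and the gene lists were chosen with earlier results of these data known. Named genes are the 9, their relatives, up to 5 genes a list by unadjusted p, genes listed at 0 and the nearest in pattern. Some items that this rule names are not reported here. Exceptions, chosen for their function or promoter, are Myl9, Myocd, Kcnj11, Myh4, Xist and Ddx3y. Heyl, Hey1, Hey2, Srf and Myl6 were chosen after their values were seen. Slc6a13, Slc22a6, Crabp2, Asmt, Crx, Pax6, Lhx4 and Klf4 were named because their estimates went against the median of their list. Alternatives changed the pseudocount, filter, scaling, gene set, block, trend, weights and libraries. The sets by unread bases and the looser CArG box were added after seeing the data.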

Additional observations from a re-analysis of the deposited data

How the results depend on the processing

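Under 24 alternatives each, 0 of the 9 genes passed an adjusted p of 0.05, and the median log2 fold change over them stayed below 0, between −1.003 and −0.20. The estimate of every gene but Des kept its sign. Des was at 0.05 without Normal-11, at 0.091 without 5xFAD-1 and at 0.07 without 5xFAD-21, and ran from −0.49 to 0.091 with 1 library left out. The count of the 9 lower at an unadjusted p under 0.05, 1 as reported, was 0 with scaling to the same protein-coding total, 2 with array weights, 7 with a term for the share of unread bases, 6 and 2 in the libraries of low and high share, 3 without Normal-22 and 5xFAD-21, and 0 to 3 with 1 library left out. Over all genes, 5 passed after adjustment as reported, 8 without a filter, 0 among genes above 0 in every library, 8 over all gene classes, 9 with array weights, 29 without Normal-22 and 5xFAD-21, 1 in the libraries of high share and 4 to 94 with 1 library left out, the 94 without Normal-22. In the fit with 0 calls, limma gave 1030 genes an unadjusted p under 0.05. Scaling to the same protein-coding total turned the split at that level from 439 lower and 602 higher to 217 and 887. The pericyte list's median was −0.76 in the libraries of high share. The causes were not tested. With a filter at a mean of 5 FPKM, 6 of the 9 genes remained.

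The replicate numbers did not pair the libraries: same-numbered libraries had correlations of −0.04, 0.21, −0.34 and 0.24 in their deviations from the group means. With a replicate block 0 of the 9 genes were lower at an unadjusted p under 0.05, and 0 passed after adjustment.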
